A study of Mus musculus with 10 samples.

Results

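The genes described here are 10 components of the cytotoxic granule: the granzymes Gzma, Gzmb, Gzmk and Gzmm, the pore-forming protein Prf1, the granule membrane protein Nkg7, the cathepsins Ctsw and Ctsc, the granzyme B inhibitor Serpinb9 and the granule proteoglycan Srgn. They were taken with every probe set that the platform annotation assigns to them, which gave 14 of the 45037 probe sets on the array, for 10 of the 18193 genes that have a probe set of their own. RNA was measured on 10 Affymetrix arrays of invariant natural killer T (iNKT) cells, T cells that see lipids presented by CD1d, sorted from thymi of 6-week-old C57BL/6 mice. Cells that bound the tetramer (Tet+) and lacked CD24, NK1.1 and CD44 are called stage 1, and those with the same phenotype but with CD44 are called stage 2. At stage 1 the WT and the Id3KO group had 2 arrays each, and at stage 2 each had 3. Id3KO mice lack Id3, an inhibitor of the E protein transcription factors. The labels give the genotype without saying how Id3 was deleted or in which cells. They call the replicates biological but do not say how many mice went into a sample.

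Cytotoxic lymphocytes store granzymes and perforin in secretory lysosomes, bound to the proteoglycan serglycin. On contact with a target cell the granules fuse with the plasma membrane, perforin opens the way into the target, and the granzymes, which are serine proteases, cleave proteins there. Granzymes are made as inactive precursors that cathepsin C trims, and the cytosolic serpin Serpinb9 protects the cell itself from escaped granzyme B. In the thymus, iNKT cells reach their most cytotoxic state late, as NK1.1+ cells, which the sort left out.

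Gzma was far higher without Id3 at both stages, Gzmb and Ctsw were lower without Id3 at stage 2, and the other tested members did not pass the test in either genotype comparison. The 250 bases before the start site are given for Gzma and Gzmb, which moved in opposite directions, for Gzmk, the neighbour and relative of Gzma whose signal stayed at background, and for Nkg7, which did not pass but had the largest negative difference at stage 2 among the members. The sequences are those of RefSeq on GRCm38.p6, 5′ to 3′ on the strand of the gene. Capitals mark E-boxes (CANNTG), the letters that E proteins bind.
Gzma, chr13:113100982-113101231, minus strand: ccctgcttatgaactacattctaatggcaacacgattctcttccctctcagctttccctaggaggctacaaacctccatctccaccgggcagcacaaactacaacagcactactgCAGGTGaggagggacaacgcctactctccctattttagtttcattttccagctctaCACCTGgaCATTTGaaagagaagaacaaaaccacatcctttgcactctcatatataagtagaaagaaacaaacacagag
Gzmk, chr13:113180966-113181215, minus strand: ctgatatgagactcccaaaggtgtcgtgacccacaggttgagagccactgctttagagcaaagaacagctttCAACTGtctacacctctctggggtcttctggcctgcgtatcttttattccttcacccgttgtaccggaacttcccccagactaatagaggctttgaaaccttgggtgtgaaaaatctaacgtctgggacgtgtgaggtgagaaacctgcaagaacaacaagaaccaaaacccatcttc
Gzmb, chr14:56262335-56262584, minus strand: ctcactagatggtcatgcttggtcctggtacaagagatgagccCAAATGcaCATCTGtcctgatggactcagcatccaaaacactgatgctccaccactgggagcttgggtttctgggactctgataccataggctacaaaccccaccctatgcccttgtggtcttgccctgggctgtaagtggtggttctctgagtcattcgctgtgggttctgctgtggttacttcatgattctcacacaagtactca
Nkg7, chr7:43436888-43437137, plus strand: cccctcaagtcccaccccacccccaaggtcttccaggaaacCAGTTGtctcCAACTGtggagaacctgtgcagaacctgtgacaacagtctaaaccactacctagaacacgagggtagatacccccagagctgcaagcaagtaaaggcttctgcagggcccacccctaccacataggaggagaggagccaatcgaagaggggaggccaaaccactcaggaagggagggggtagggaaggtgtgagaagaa

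Motifs were searched on both strands from 250 bases before to 50 bases after each start site, and 9 of the 10 genes had an entry, with 11 promoters. Ctsw had none. Gzma held 3 E-boxes, beginning at -135, -79 and -71 from the start site. Those at -135 and -79 read CAGGTG and CACCTG, a form that 20.2% of all 32851 promoters of that length held at least once, against 72.3% for any E-box. Gzmb held 2 E-boxes, at -207 and -199, of which neither had that form, and 2 copies of the Runx letters TGTGGT, at -93 and -34 (16.8% of promoters). Gzma at -50 and Nkg7 at -83 each had 1 copy of these Runx letters on the other strand, and Gzmk had none. Gzmk had 1 E-box at -178 and Nkg7 had 2, at -209 and -199, none of the CAGGTG or CACCTG form. Gzmk at -75 and Nkg7 at -13 carried the T-box letters TCACACC on the other strand, which 3.98% of promoters held. Among the members whose sequences are not shown, Prf1 also held CAGGTG, at -25. The E-box form CAGCTG, in 16.3% of promoters, was found in Prf1 at -204 and in Srgn at -59 and -1. Gzmm, Prf1, Serpinb9 and Srgn also had the Runx letters, and Gzmm and Ctsc the T-box letters. These are matches of letters and were not tested for binding.

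A probe set was tested when its intensity exceeded 55.1, the median of the whole table (5.78 on the log2 scale), on at least 2 of the 10 arrays. Of the 14 probe sets, 11 passed, covering 9 genes. The only Gzmk probe set, 1 of 2 for Prf1 and 1 of 3 for Ctsc were not tested. Array medians lay between 54.8 and 55.5. Id3 itself fell from 1285 ± 4.79 (SD, n = 2) to 64.4 ± 1.45 (SD, n = 2) at stage 1 and from 904.7 ± 139 to 63.7 ± 8.37 (SD, n = 3 each) at stage 2, and whether its probe set lies in a deleted stretch is unknown here. The T cell markers Cd3d, Cd3e, Cd3g, Cd5, Thy1 and Zbtb16 were above that level in every group, with a summed intensity of 11468 to 12210 in WT stage 1, 11376 to 12241 in WT stage 2, 10770 to 11315 in Id3KO stage 1 and 9425 to 10879 in Id3KO stage 2. Thy1 itself was lower without Id3, at 1168 ± 306 against 2978 ± 111 (SD, n = 3 each) at stage 2. Cd44, which divided the stages, read 147 and 224 on the WT stage 1 arrays, 653, 797 and 858 on those of WT stage 2, 130 and 255 on those of Id3KO stage 1, and 577, 280 and 507 on those of Id3KO stage 2. The nearest arrays of the stages were thus 255 and 280 in Id3KO and 224 and 653 in WT. In sorted populations measured in bulk, fewer cells of a type and less RNA per cell cannot be told apart.

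**Figure D1:**
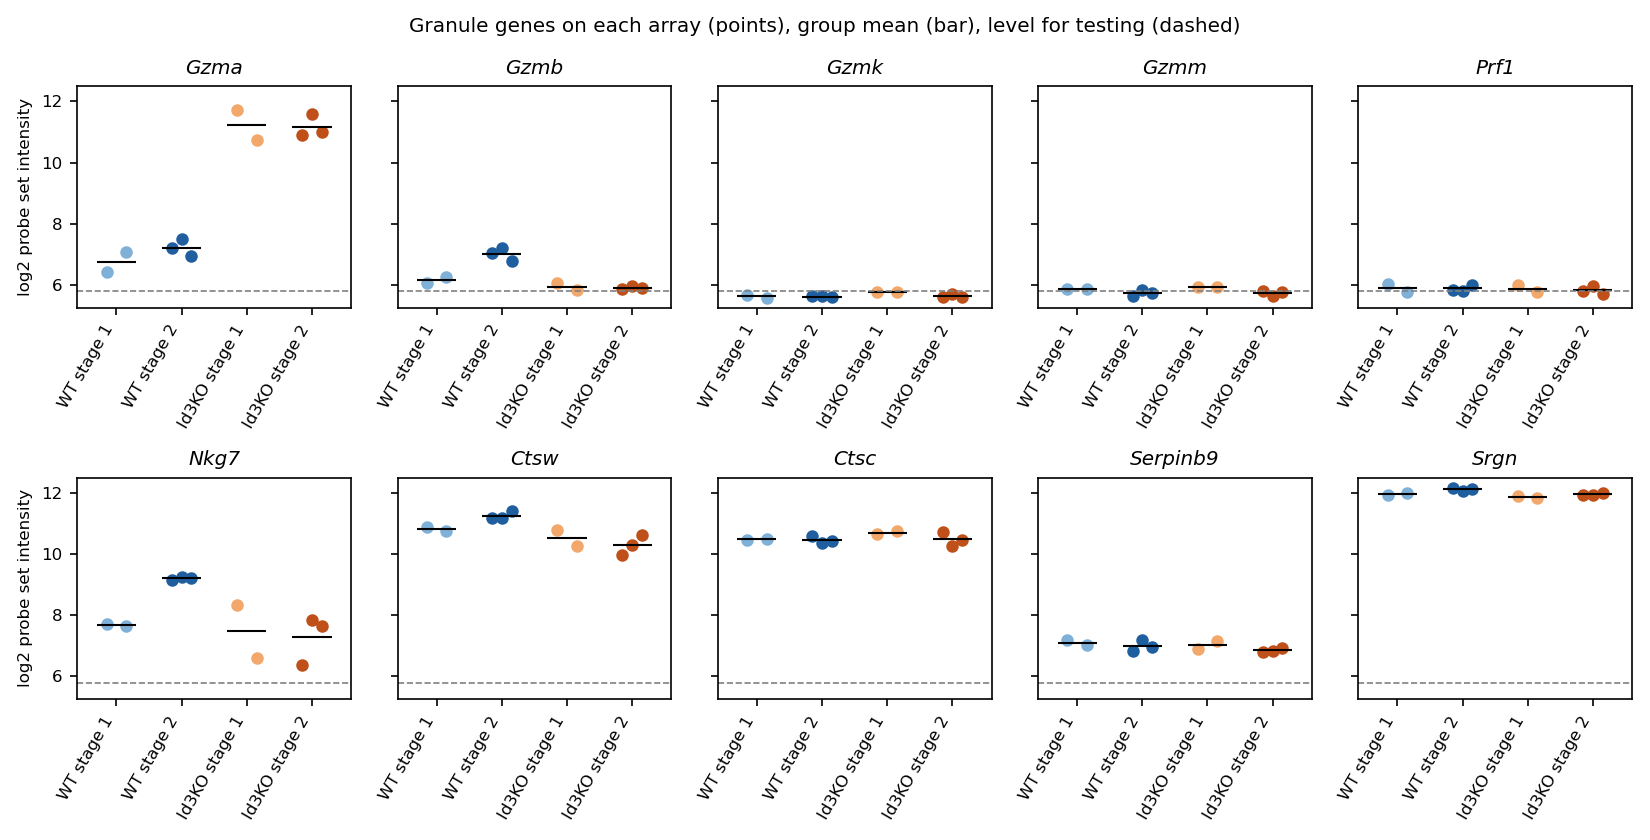
Log2 intensity of the 10 granule genes on each of the 10 arrays (points, by group; the brightest probe set of each gene), with the group mean as a bar and the level for testing, 5.78, as a dashed line. Gzma is the gene whose Id3KO arrays all lie above its WT arrays, and Gzmb, Nkg7 and Ctsw are highest on the WT stage 2 arrays.

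Gzma encodes granzyme A, a protease that cuts after basic residues. Its intensity was 86.4 and 135.6 on the WT stage 1 arrays and 3355 and 1702 on the Id3KO stage 1 arrays. At stage 2 it was 148, 183 and 123 on the WT arrays and 1923, 3087 and 2047 on the Id3KO arrays. The groups did not overlap, and the lowest of the 5 Id3KO arrays stood over the highest of the 5 WT arrays. The difference was 4.46 ± 0.36 on the log2 scale at stage 1 (SE, n = 2 against 2, 95% interval 3.64 to 5.29, limma adjusted p = 0.00251), or 22.1-fold. At stage 2 it was 3.95 ± 0.30 (SE, n = 3 against 3, 95% interval 3.27 to 4.62, limma adjusted p = 0.000454), or 15.4-fold. The stage 1 call was lost when the 4 stage 1 arrays were fitted alone (adjusted p = 0.0640). The effect at stage 2 minus that at stage 1 was -0.52 ± 0.47 (log2, SE, 95% interval -1.59 to 0.55, limma adjusted p = 0.863), so a difference between the stages did not pass the test. Gzma did not pass between the stages of either genotype, at 0.46 ± 0.33 in WT (log2, SE, limma adjusted p = 0.801) and -0.06 ± 0.33 in Id3KO (adjusted p of nearly 1).

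Within Id3KO, the highest Gzma values were those of replicate 1 at stage 1 and replicate 2 at stage 2. These were also the arrays with the lowest Cd44 and the highest Nkg7 of their group, and the lowest Thy1, at 1215 against 1415 at stage 1 and 835 against 1234 and 1437 at stage 2. Whether the mix of cells plays a part in the spread of Gzma was not tested.

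Gzma lies next to Gzmk on chromosome 13, in the order Cdc20b, Gpx8, Gzma, Gzmk and Esm1. Gzmk, a further protease that cuts after basic residues, had group means of 49.6 ± 2.21 (SD, n = 2) in WT stage 1, 49.1 ± 0.71 (SD, n = 3) in WT stage 2, 54.5 ± 0.33 (SD, n = 2) in Id3KO stage 1 and 49.4 ± 1.84 (SD, n = 3) in Id3KO stage 2. None of the 10 arrays reached the level for testing, so its single probe set was not tested beside that of Gzma. Its Id3KO stage 1 arrays read 54.75 and 54.29, just under that level, and the arrays of the other groups 48.07 to 51.55. Cdc20b, Gpx8 and Esm1 had group means between 32.3 and 41.2, and 0 of the 10 arrays reached that level for any of them.

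Natural killer (NK) cells, mast cells and other T cells also make granzymes, and markers of other cell types were read beside Gzma. Of the 5 NK cell markers with a probe set of their own, Ncr1, Tyrobp and Klrk1 did not meet the rule of 2 arrays above the level for testing. Klrk1 had 1 array above it, in WT stage 2. Ncr1 averaged 44.4 and 46.3 in WT and 42.2 in each of the Id3KO groups. Klre1, a lectin receptor of NK cells, read 51.7 and 55.7 in WT stage 1 and 59.4 and 76.4 in Id3KO stage 1, without overlap, and 56.1 to 62.0 in WT stage 2 and 46.6 to 79.6 in Id3KO stage 2. It did not pass at either stage (limma adjusted p = 0.712 and 0.806). The summed intensity of the 5 was 262 to 284 in WT stage 1, 293 to 305 in WT stage 2, 268 to 276 in Id3KO stage 1 and 294 to 428 in Id3KO stage 2. Fcer1g, an adaptor of NK and myeloid cells, accounted for the upper end of the last range, with 109, 207 and 129 against 82.2, 87.5 and 87.6 in WT stage 2. It did not pass the test (0.74 ± 0.21, log2, SE, limma adjusted p = 0.0980). In Id3KO stage 2 its highest value was on replicate 2, which also had the highest Gzma of that group. In Id3KO stage 1 Fcer1g read 69.5 and 75.2, against 87.8 and 68.8 in WT stage 1, and the lower of the Id3KO values was on the array with the higher Gzma. Of 5 mast cell markers 4 did not meet the rule, among them Tpsb2 with 1 array above the level, in Id3KO stage 2. The sum of the 5 was 216 to 220 in WT stage 1, 215 to 231 in WT stage 2, 217 to 233 in Id3KO stage 1 and 227 to 238 in Id3KO stage 2. The remaining one, Cpa3, a mast cell carboxypeptidase, averaged 43.4 and 44.3 in WT stage 1 and stage 2, with no array above the level, and 52.3 and 57.0 in the Id3KO groups, with 1 and 2 arrays above it. Its Id3KO arrays were above the WT arrays of the same stage without overlap, by 0.26 ± 0.12 and 0.36 ± 0.10 (log2, SE), and did not pass (limma adjusted p = 0.523 and 0.0938). NK1.1 itself (Klrb1c) has no probe set of its own in the annotation and was not checked here. Sox13, the only gamma delta T cell marker with its own probe set, averaged 207, 135, 149.8 and 148 in WT stage 1, WT stage 2, Id3KO stage 1 and Id3KO stage 2. Of the CD8 T cell markers Cd8b1 did not meet the rule, and neither did 4 of 4 markers of double-positive thymocytes, 2 of 4 of myeloid cells and Ms4a1 of B cells. Among these, the myeloid marker Cd68 had 1 array above the level, in Id3KO stage 1. At stage 1 and stage 2 Cd8a averaged 71.4 and 78.2 in WT and 74.8 and 75.6 in Id3KO by its brightest probe set. In the same order Csf1r, of myeloid cells, averaged 72.8 and 73.9 in WT and 72.5 and 76.7 in Id3KO. Every array was above the level for both. At stage 1 a dimmer Cd8a probe set read 54.4 in WT and 59.8 to 60.3 in Id3KO. This difference did not pass (limma adjusted p = 0.606), and at stage 2 the genotypes overlapped. By the brightest probe set of each gene, thymic epithelial markers summed to 231 to 257 over all arrays and those of plasmacytoid dendritic cells to 91.6 to 116. Another probe set of the epithelial marker Epcam read 46.8 to 67.6 in WT stage 1 and 72.3 to 103 in Id3KO stage 1. At stage 2 it read 44.5 to 59.2 in WT and 60.8 to 63.3 in Id3KO. The genotypes did not overlap at either stage, and the differences did not pass (limma adjusted p = 0.338 and 0.483). The part of other cells in the Gzma difference was not tested.

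Gzmb encodes granzyme B, which cuts after aspartate and starts apoptosis in target cells. Its intensity was 67.3 and 76.2 on the WT stage 1 arrays, 131, 148 and 110 on those of WT stage 2, 66.1 and 56.9 on those of Id3KO stage 1, and 57.7, 62.0 and 59.2 on those of Id3KO stage 2. The WT stage 2 arrays thus stood above all others, and the Id3KO arrays were close to the level for testing. At stage 2 Gzmb fell by 1.11 ± 0.12 on the log2 scale without Id3 (SE, n = 3 against 3, limma adjusted p = 0.00163), 2.16-fold, a size limited by how near the Id3KO signal came to background. At stage 1 the difference was -0.22 ± 0.14 (log2, SE, n = 2 against 2, adjusted p = 0.674). Averaged over the stages it was -0.67 ± 0.09 (log2, SE, limma adjusted p = 0.00413).

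Ctsw, cathepsin W, is a cysteine protease restricted to cytotoxic lymphocytes. It read 1887 and 1735 in WT stage 1, 2326, 2327 and 2711 in WT stage 2, 1773 and 1235 in Id3KO stage 1, and 1004, 1251 and 1594 in Id3KO stage 2. All Id3KO stage 2 arrays were below all WT arrays, of either stage. At stage 2 the level fell by 0.96 ± 0.18 on the log2 scale (SE, n = 3 against 3, limma adjusted p = 0.0237), 1.94-fold. This call was lost without replicate 1 (adjusted p = 0.0548), 2 (0.0654) or 3 (0.0932) of WT stage 2 and without replicate 1 (0.0572) or 2 (0.0706) of Id3KO stage 2. At stage 1 Ctsw stood at -0.29 ± 0.22 (log2, SE, limma adjusted p = 0.741), with overlapping arrays.

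Nkg7, a granule membrane protein needed for full degranulation, read 210 and 199 in WT stage 1 and 575, 608 and 595 in WT stage 2. The Id3KO arrays spread widely, with 326 and 98.2 at stage 1 and 83.3, 231 and 199 at stage 2. On the log2 scale the SD was 0.05 and 0.04 in the WT groups of stage 1 and stage 2 and 1.23 and 0.79 in those of Id3KO. Every Id3KO stage 2 array lay below every WT stage 2 array, but the difference of -1.92 ± 0.46 (log2, SE, n = 3 against 3, 95% interval -2.97 to -0.87) did not pass (limma adjusted p = 0.0561). It passed in 6 of 20 alternative settings, with an adjusted p of 0.0240 to 0.155 over all of them, and the lowest came when either of the Id3KO stage 1 arrays was left out. At stage 1 the difference was -0.19 ± 0.57 (log2, SE, 95% interval -1.48 to 1.09, adjusted p = 0.963), an interval too wide to settle a direction.

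**Figure D2:**
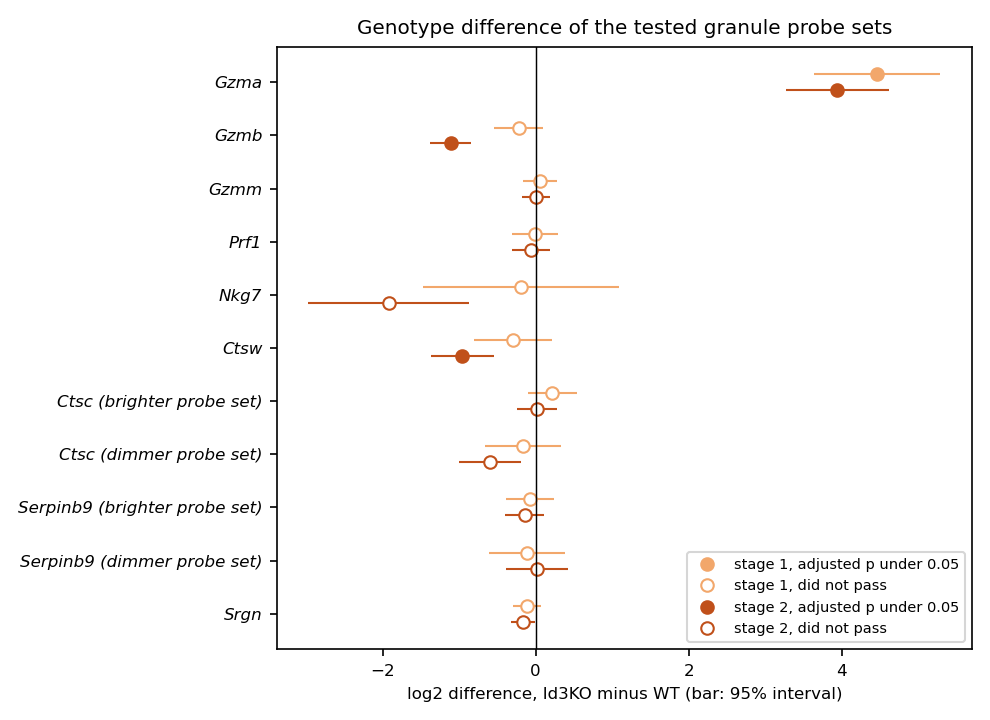
Log2 difference between Id3KO and WT with its 95% interval for the 11 tested probe sets, at stage 1 (light) and stage 2 (dark); filled points passed at an adjusted p under 0.05. Gzma stands at 4.46 and 3.95, Gzmb and Ctsw pass at stage 2 at -1.11 and -0.96, and the wide bars of Nkg7 reflect the spread of its Id3KO arrays.

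Perforin and granzyme M were near background in all groups. The tested Prf1 probe set lay between 52.6 and 64.8 on all arrays and differed by -0.01 ± 0.13 at stage 1 and -0.06 ± 0.11 at stage 2 (log2, SE), and its untested probe set lay between 42.9 and 52.4. Gzmm, a protease found mainly in NK cells, lay between 49.4 and 60.5 and differed by 0.05 ± 0.10 and 0.01 ± 0.08. With signals this close to the level for testing, a change in either gene was not detectable here unless it raised them.

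By their brightest probe sets the packaging and processing genes were well above background and showed small differences. Ctsc, which activates granzymes, had group means of 1431 ± 33.3 and 1663 ± 68.1 (SD, n = 2) in WT and Id3KO at stage 1, and 1416 ± 124 and 1439 ± 219 (SD, n = 3) at stage 2. Its brightest probe set differed by 0.22 ± 0.14 (95% interval -0.10 to 0.54) at stage 1 and 0.02 ± 0.12 (95% interval -0.25 to 0.28) at stage 2, on the log2 scale. A dimmer Ctsc probe set stood at -0.60 ± 0.18 (log2, SE, limma adjusted p = 0.112) at stage 2. Over both stages 3 WT arrays and 0 Id3KO arrays of this probe set exceeded the level for testing, so it was tested only because of its WT signal. Srgn, serglycin, averaged 4026 ± 107 and 3729 ± 161 (SD, n = 2) in WT and Id3KO at stage 1 and 4442 ± 187 and 3963 ± 111 (SD, n = 3) at stage 2. The Id3KO arrays of each stage lay below the WT arrays of that stage, but the differences of -0.11 ± 0.08 and -0.16 ± 0.07 (log2, SE) did not pass (limma adjusted p = 0.732 and 0.256). Serpinb9 lay between 112 and 146 on all arrays by its brighter probe set, with differences of -0.08 ± 0.14 at stage 1 and -0.14 ± 0.11 at stage 2 (log2, SE) that did not pass. Its dimmer probe set was near background, between 42.96 and 70.04. It differed by -0.11 ± 0.22 and 0.01 ± 0.18 (log2, SE) and did not pass either.

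In all, 1 of the 11 probe sets rose and 0 fell at stage 1, where limma called 0.459% of the 25061 tested probe sets higher and 0.343% lower. At stage 2, 1 rose and 2 fell, against 1.82% and 2.39% of all. Of the 11, 6 had an unadjusted p under 0.05 at stage 2 and 1 did at stage 1, while 4236 and 2629 of all 25061 did. The median difference of the 11 was -0.11 at stage 1 and -0.14 at stage 2 (log2), beside -0.01 and 0.01 over all tested probe sets. Without overlap of the arrays, 3 were higher and 2 lower at stage 1, where 18.7% and 22.8% of all were, and 1 was higher and 5 lower at stage 2, where 10.9% and 10.5% were. The 5 lower at stage 2, and the 6 with an unadjusted p under 0.05, include the dimmer Ctsc probe set. That probe set was tested only because of its WT signal, and the brightest Ctsc probe set stood at 0.02 (log2) at stage 2. Over both stages at once, 1 was higher and 1 lower in every array of a genotype, where 3.1% and 3.75% of all were. Averaged over the stages, Gzma rose and Gzmb and Ctsw fell (2.18% of all were called higher and 2.79% lower), and the call of Ctsw (-0.62 ± 0.14, log2, SE, limma adjusted p = 0.0438) was lost in 11 of 19 alternative settings.

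Between the stages, the question is whether granule genes rise as cells gain CD44. In WT cells Gzmb was higher at stage 2 by 0.85 ± 0.13 (1.80-fold), Nkg7 by 1.53 ± 0.52 (2.89-fold) and Ctsw by 0.44 ± 0.20 (log2, SE, n = 3 against 2), with no overlap of the arrays, but the limma adjusted p values were 0.109, 0.510 and 0.644. Of the 11 probe sets 0 passed, 2 had an unadjusted p under 0.05 (2019 of all 25061 did), and 4 were higher and 1 lower without overlap, where 11.8% and 14.4% of all were. In WT cells 0.012% of all probe sets were called higher and 0.00399% lower. When the 5 WT arrays were fitted alone, Nkg7 passed (adjusted p = 0.0349). In Id3KO cells the same genes stood at -0.04 ± 0.13 (Gzmb), -0.19 ± 0.52 (Nkg7) and -0.23 ± 0.20 (Ctsw), with a limma adjusted p of nearly 1 for each, and 0 of the 11 had an unadjusted p under 0.05. In Id3KO cells 0 of all 25061 probe sets passed, and 1131 had an unadjusted p under 0.05, while 1 of the 11 was higher and 2 were lower without overlap, where 9.45% and 8.91% of all were. The comparison of stages in WT shares its WT stage 2 arrays with the genotype comparison at stage 2, and that in Id3KO shares the Id3KO stage 2 arrays with it.

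The interaction, the genotype effect at stage 2 minus that at stage 1, was -0.89 ± 0.18 for Gzmb, -1.73 ± 0.73 for Nkg7 and -0.67 ± 0.29 for Ctsw (log2, SE). These had an unadjusted p of 0.00101, 0.0429 and 0.0471, and limma adjusted p values of 0.507, 0.706 and 0.706. With limma 0 of the 11, and 0 of all tested probe sets, passed, and 1772 of all had an unadjusted p under 0.05. A difference between the stages in the effect of Id3 loss is therefore not shown for any of the 10 genes.

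Genes whose profile was closest to Gzma were ranked by the root mean square difference of centred log2 values over the 10 arrays, among 11399 genes. The nearest were Garem1 (0.67), Klra8 (0.72), Tcf24 (1.05), Chl1 (1.15) and Asns (1.15), while the profile of Gzma itself had a root mean square of 2.11. The choice by profile fixes that these genes separate the genotypes as Gzma does. Garem1 and Tcf24 were below the level for testing on all WT arrays and Klra8 on all but 1 of them, so the size of their differences is limited by background. For Gzmb, with a root mean square of 0.49, the nearest were Dennd5a (0.17), Abhd15 (0.19), Nrarp (0.19), Clnk (0.20) and Gnaq (0.22). Their choice by profile likewise fixes that they are high in WT stage 2, as Gzmb is. Clnk, an adaptor of immune receptor signalling, read 36.1 ± 0.61 (SD, n = 2) in WT stage 1, 82.2 ± 2.13 (SD, n = 3) in WT stage 2, 38.3 ± 3.15 (SD, n = 2) in Id3KO stage 1 and 39.4 ± 1.16 (SD, n = 3) in Id3KO stage 2. Outside WT stage 2 all its arrays were below the level for testing. It thus entered the ranking only because of its WT stage 2 signal, and its differences are limited by background. Nrarp, a feedback inhibitor of Notch signalling, stood at 158 ± 16.3 in WT stage 2 and at 90.4 ± 7.92 (SD, n = 3) in Id3KO stage 2.

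**Figure D3:**
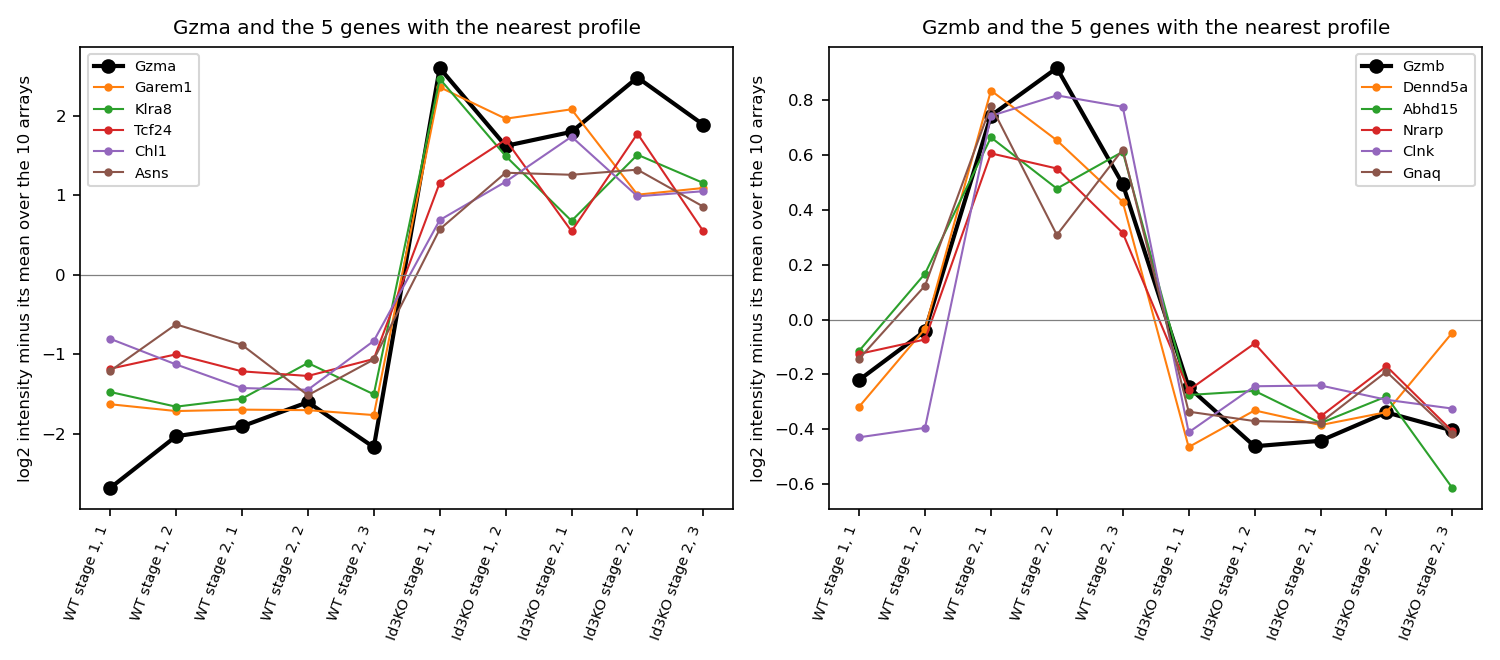
Log2 intensity of Gzma (left) and Gzmb (right) on each array, centred on the mean over the 10 arrays, with the 5 genes of nearest profile; the lines join arrays, named by group and replicate, for reading only. As their choice by profile entails, the 5 neighbours of Gzma separate the genotypes, and those of Gzmb are highest on the WT stage 2 arrays.

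The other genes of the pathway were read from lists of 6 kinds, taking the brightest tested probe set per gene. Among all 25061 tested probe sets, 0.459% were called higher and 0.343% lower at stage 1. At stage 2 the shares were 1.82% and 2.39%, and averaged over the stages 2.18% and 2.79%. Fitted with 1 probe set per gene, 99 of 11951 genes were called higher and 83 lower at stage 1. At stage 2 these were 371 and 515. The median difference over all tested probe sets was -0.01 and 0.01 (log2). The lists were not tested as sets. Beside Gzma and Gzmb, the array holds Gzmc, Gzmd, Gzme, Gzmf, Gzmg and Gzmn, which lie with Gzmb on chromosome 14. Gzmc alone was tested, and it was at 48.9, 57.3 and 55.3 in WT stage 2 and at 40.0, 42.1 and 40.2 in Id3KO stage 2. It was tested only because 2 WT stage 2 arrays exceeded the level, and all its Id3KO arrays were at background, so its call at stage 2 (limma adjusted p = 0.0315, lost in 9 of 19 alternative settings) follows in part from the filter and its size is not read here. The other 5 averaged 30.6 to 38.7 in every group, and probe sets of this cluster can bind transcripts of near relatives.

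Of 17 tested genes of granule transport and exocytosis, 1 rose and 0 fell at stage 1, and 1 rose and 1 fell at stage 2, with medians of -0.08 and -0.05 (log2). The genes that moved, Exph5 and Sytl1, went in opposite directions. Both encode effectors of Rab27a, the small GTPase that docks granules, and such effectors were not tested as a group. Exph5 read 46.2 and 80.8 in WT stage 1 and 53.8, 45.3 and 51.8 in WT stage 2. It read 203 and 258 in Id3KO stage 1 and 273, 154 and 159 in Id3KO stage 2. Its WT arrays were below the level for testing but for 1, so it was tested only because of its Id3KO signal. Its calls as higher (limma adjusted p = 0.0366 at stage 1 and 0.00552 at stage 2) follow in part from the filter, and no size is given. Its stage 1 call was lost in 10 of 20 alternative settings. Sytl1 was 217, 185 and 203 in WT stage 2 against 95.9, 117 and 127 in Id3KO stage 2, and fell by 0.84 ± 0.13 (log2, SE, limma adjusted p = 0.0105). Rab27a itself stood at -0.15 ± 0.07 and Unc13d, which primes granules for fusion, at -0.27 ± 0.11 at stage 2 (log2, SE), and neither passed.

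Of 12 lysosomal and granule proteins, 1 rose at stage 1, and 2 rose and 2 fell at stage 2, with medians of -0.13 and 0.00 (log2). Lamp1, the membrane protein whose surface display marks degranulation, rose from 627.5 ± 45.1 to 923 ± 43.8 at stage 2 (SD, n = 3 each, 0.56 ± 0.09 log2, SE, limma adjusted p = 0.00923), and stood at 743 ± 4.16 and 1026 ± 107 (SD, n = 2 each) at stage 1, where it did not pass. A probe set of Gusb, lysosomal beta-glucuronidase, rose by 0.48 ± 0.09 at stage 1, a call lost in 16 of 20 alternative settings, and by 0.42 ± 0.07 at stage 2 (log2, SE, limma adjusted p = 0.0498 and 0.0137), while another stood at -0.16 ± 0.10 and -0.03 ± 0.08. The cathepsins Ctss (-0.76 ± 0.12) and Ctsd (-0.67 ± 0.11) fell at stage 2 (log2, SE, limma adjusted p = 0.0105 and 0.0138). Cst7, the cystatin that restrains cathepsins C and L, stood at -0.71 ± 0.20 and -0.41 ± 0.16 at stage 1 and stage 2 (log2, SE). It did not pass at either stage but was called lower averaged over the stages.

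Of 3 tested intracellular serpins, 1 fell at stage 2, and 2 were called lower averaged over the stages, Serpinb1a and Serpinb6a. The one that fell at stage 2 was Serpinb1a, an inhibitor of neutrophil proteases, with 45.2 ± 4.24 (SD, n = 2) in WT stage 1, 458 ± 171 (SD, n = 3) in WT stage 2, 44.6 ± 1.41 (SD, n = 2) in Id3KO stage 1 and 68.3 ± 28.8 (SD, n = 3) in Id3KO stage 2. Serpinb1a fell by 2.77 ± 0.33 on the log2 scale at stage 2 (SE, limma adjusted p = 0.00288), a size limited by how near the Id3KO signal came to background. Its other probe set fell by 0.79 ± 0.15. Of 5 death ligands and related cytokines, 0 moved at stage 1 and 2 fell at stage 2, the lymphotoxin genes Ltb (-0.87 ± 0.16) and Lta (-0.58 ± 0.09, log2, SE, limma adjusted p = 0.0217 and 0.0119). Fasl, the ligand of the death receptor Fas, stood at -0.73 ± 0.20 at stage 2 and did not pass (log2, SE, adjusted p = 0.0899).

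**Figure D4:**
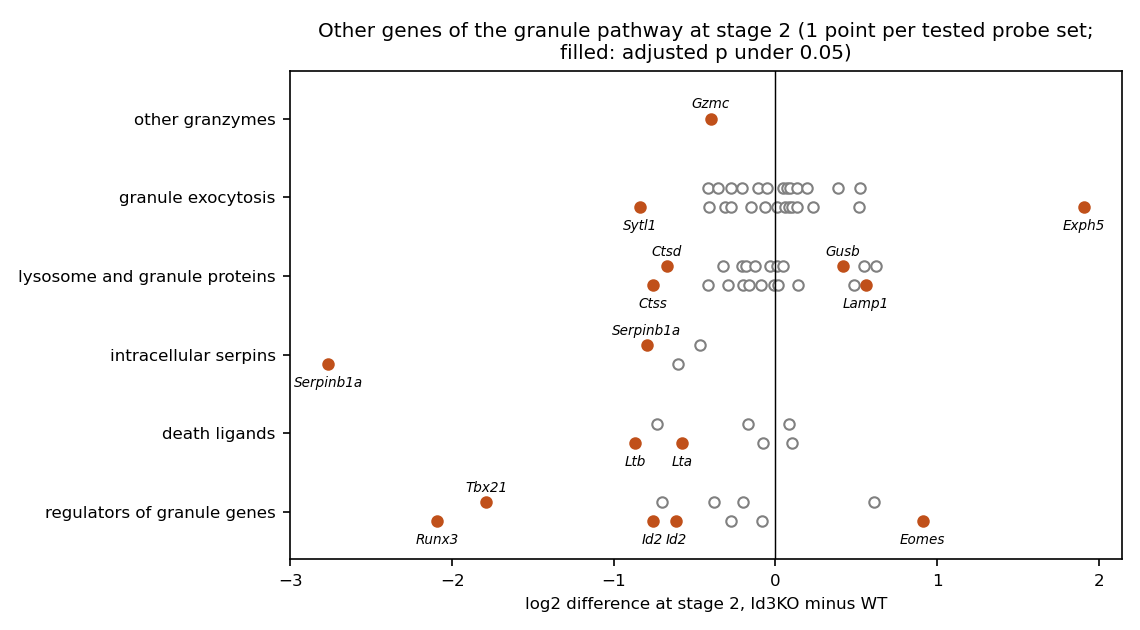
Log2 difference between Id3KO and WT at stage 2 for each tested probe set of the 6 lists of other granule pathway genes (points; filled and named where the adjusted p was under 0.05). Exph5, tested only because of its Id3KO signal, and Serpinb1a, whose size is limited by background, mark the ends. The open points lie within 1 unit of 0. Serpinb1a and Id2 appear with 2 called probe sets each.

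Of 6 transcription factors that control granule genes, 1 fell at stage 1 and 2 fell at stage 2 by their brightest tested probe set, and 0 rose, with medians of -0.50 and -0.54 (log2). Averaged over the stages, Tbx21, Runx3 and Id2 were called lower and Eomes higher by the same probe sets. Runx3, a Runt factor of cytotoxic T cells, was 254 and 274 in WT stage 1, 394, 437 and 425 in WT stage 2, 125 and 92.2 in Id3KO stage 1 and 92.2, 110 and 93.2 in Id3KO stage 2. It fell by 1.30 ± 0.15 and 2.09 ± 0.12 (log2, SE, limma adjusted p = 0.01004 and 0.000179), but its other probe set stood at -0.14 ± 0.08 and -0.08 ± 0.07 and did not pass. The stage 1 call was lost without WT replicate 1 or 2 of stage 1 and when the stage 1 arrays were fitted alone, with an adjusted p of up to 0.114. Tbx21, the T-box factor T-bet, was at 679 ± 122 in WT stage 2 and 196 ± 30.7 (SD, n = 3 each) in Id3KO stage 2, and fell by 1.79 ± 0.19 on the log2 scale (SE, limma adjusted p = 0.00185). Eomes, a related T-box factor, averaged 39.8 ± 1.17 in WT stage 2, below the level for testing, and 75.8 ± 14.1 (SD, n = 3 each) in Id3KO stage 2 by its dimmer probe set. All WT arrays of this probe set were below the level, so it was tested only because of its Id3KO signal, and no size is given for its call (limma adjusted p = 0.0118 at stage 1 and 0.00999 at stage 2). The brighter Eomes probe set did not pass at either stage (limma adjusted p = 0.0929 and 0.221). All its WT arrays were below the level too, so it was also tested only because of its Id3KO signal. Its call averaged over the stages therefore follows in part from the filter, and no size is given. Id2, another inhibitor of E proteins, stood at -0.70 ± 0.17 at stage 2 by its brightest probe set, which did not pass (log2, SE, limma adjusted p = 0.0583), and fell by 0.76 ± 0.16 and 0.62 ± 0.12 by the dimmer ones (adjusted p = 0.0368 and 0.0273).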

How the data were processed

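RNA of 10 sorted cell samples was labelled in 2 cycles and hybridised to Affymetrix arrays, per the labels' protocols. The deposited intensity values are on a linear scale and were normalized by the authors with RMA, per the submitters' processing notes, in a version not given. Background correction and normalization between arrays limit low signals and hide a shift of all genes together. Log2 was taken here. Probe sets above 5.78 on at least 2 arrays were kept (25061), and all 4 groups entered a single limma model (version 3.58.1, R 4.3.3) of the group means (6 residual and 2.80 prior degrees of freedom). Tests were two-sided and adjusted by Benjamini and Hochberg over all kept probe sets of a comparison. Calls were made at an adjusted p under 0.05. The fit was run on simulated data with planted differences larger than those called for Gzmb and Ctsw, so that run does not speak to differences of their size. The interaction and the average over the stages were not simulated. Arrays give no counting depth, and their number limits the precision.

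Members, lists, tests and alternatives were chosen with earlier results of these data known. Every member was described. From the other lists called genes were named, with a few named as examples of their list after their values were seen, and for Gzma and Gzmb the 5 nearest profiles were named, leaving out members and unnamed gene models. Alternatives were other filters, normalizations, variance models, array weights, fewer arrays, a replicate block, 1 probe set per gene, a 2-fold rule and each array left out. Promoter sequences came from RefSeq on GRCm38.p6. The probe sets' own sequences and the genome build of the array design were not used here.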

Additional observations from a re-analysis of the deposited data

How the results depend on the processing

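The values called for Gzma at stage 2, and for Gzmb at stage 2, passed in each of 20 alternative settings, with an adjusted p of 0.000197 to 0.00309 and of 0.000847 to 0.00902. No called value changed sign in any of these settings. Fitting only the arrays compared left 0 members called higher at stage 1 and made 1 member higher between the stages in WT. With a fold change of at least 2, 1 member was lower at stage 2 and 0 were lower averaged over the stages. Averaged over the stages, 1 member was lower with no filter and 1 with a further quantile normalization. Leaving out each array in turn gave 1 to 3 members lower at stage 2 and 1 to 3 averaged over the stages. The cause of these changes was not tested. Leaving out a stage 1 array leaves 1 array in its group, which is then assumed to vary like the others.

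Nothing in the labels ties arrays of the same replicate number together, and in 2 of 13 same-numbered pairs the correlation of deviations from the group means was over 0.1 (range -0.31 to 0.13). Of the 6 stage 2 arrays, 2 correlated best with their own number in the other genotype. With the replicate number as a block, 1 member was higher and 0 lower at stage 1, and 1 higher and 2 lower at stage 2 and averaged over the stages, while all calls at stage 1 went from 115 higher and 86 lower to 54 and 45, and those at stage 2 from 457 and 598 to 322 and 457. The block changed no call of a member in any of the 6 comparisons. Signals near the table median limit what can be seen for Gzmk, Gzmm and Prf1.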
